A study of Mus musculus with 24 samples.

Results

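The genes described here carry cholesterol synthesis, uptake, intracellular transport and efflux in the mouse aorta. They were taken from a named list of 34 genes, all 34 of which were in the deposited table of 25941 genes and passed the expression filter. By role, 16 encode enzymes of synthesis, 4 regulate synthesis, 8 serve uptake, trafficking or storage, and 6 serve efflux or the handling of oxysterols. The rule for membership names functions and uses no measured value, but the list was drawn up with earlier results of these data known.

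RNA was measured by poly(A)-selected sequencing of the thoracic aorta of adult male wild-type C57BL/6 mice aged 10 to 12 weeks. The control mice ate plain chow, the celecoxib mice ate chow delivering 100 mg/kg/day and the rofecoxib mice ate chow delivering 50 mg/kg/day, each for 3 weeks. Both drugs are selective inhibitors of cyclooxygenase-2. All mice, the controls included, received 10 ug/kg of the inflammatory cytokine interleukin-1β by intraperitoneal injection 4 h before tissue collection at zeitgeber time 11, so no group shows the unstimulated aorta, and the values compare diets in acutely stimulated vessels. Each group had 8 libraries.

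Cells make cholesterol from acetyl-CoA through mevalonate, isoprenoid intermediates, squalene and lanosterol. The transcription factor SREBP-2, encoded by Srebf2, activates the genes of this route and of lipoprotein uptake when sterol in the endoplasmic reticulum falls, and the INSIG proteins hold it there while sterol is plentiful. When cholesterol is abundant, oxysterols activate the liver X receptors, encoded by Nr1h3 and Nr1h2, which drive efflux transporters such as ABCA1 and ABCG1. In the artery wall this balance bears on the loading of macrophages and smooth muscle cells with lipid.

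Library totals lay between 21668798 and 21700121 counts, a range of 0.145%; whether totals were made alike before deposit is not stated, so the sequencing depth itself is unknown. The common biological coefficient of variation was 19.6%. The 8 smooth muscle markers were abundant in every library, with mean levels of 10.8 log2 CPM (counts scaled to a common library total) in control, 10.8 in celecoxib and 10.6 in rofecoxib aortas; the lowest count of Myh11, the smooth muscle myosin heavy chain, was 155693. Because these are whole vessels, fewer cells of a type and less RNA per cell cannot be told apart. Values below are CPM scaled by the TMM method unless another scale is named, and a gene is said to rise or fall only at an edgeR quasi-likelihood adjusted p under 0.05 over all 14528 genes tested.

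Per transcript length, the members spanned a wide range in control aorta. Lrp1, an endocytic receptor for remnant lipoproteins, was the most abundant at 65.1 RPKM (CPM per kilobase of exon), followed by Nr1h2 at 45.9 RPKM and Mylip, the ubiquitin ligase that degrades lipoprotein receptors, at 30.9 RPKM. Srebf2 stood at 29.0 RPKM. The most abundant synthesis gene was Fdft1, encoding squalene synthase, at 14.6 RPKM. The lowest members were Abcg1 at 0.665 RPKM and Dhcr7, encoding the last enzyme of the Kandutsch-Russell route, at 0.441 RPKM.

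In rofecoxib aortas, 12 members rose and 1 fell against control. Of the risers 9 were synthesis enzymes, and the others were Insig1, the sterol transporter gene Stard4 and the lipoprotein receptor gene Scarb1. The gene that fell was Soat1, which esterifies cholesterol for storage. Across all genes tested, 6.94% were called in this comparison, 3.88% higher and 3.06% lower. The rises were moderate, between 1.4-fold for Fdps and 1.86-fold for Hsd17b7. The median log2 fold change was 0.51 over the 16 synthesis members, 0.00 over the 4 regulators, -0.03 over the 8 uptake and trafficking members and 0.23 over the 6 efflux members, against 0.02 over all genes tested. For 7 members every rofecoxib library lay above every control library, a separation found upward for 0.275% of all genes tested.

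**Figure D1:**
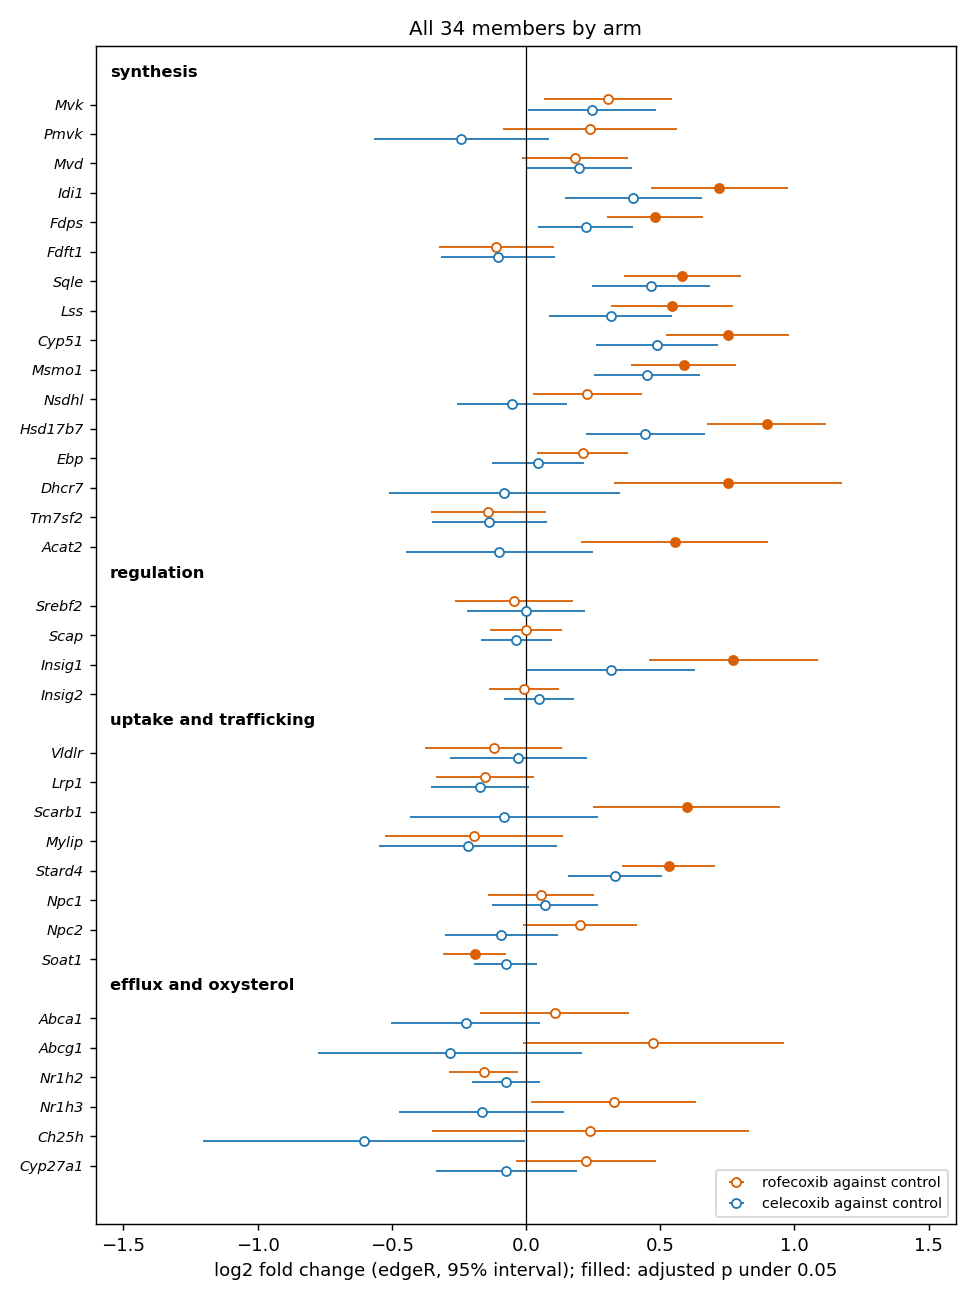
Log2 fold change of each of the 34 members against control, with 95% intervals from the edgeR fit, grouped by role; filled points have an adjusted p under 0.05. Filled points for rofecoxib stand mostly among the synthesis genes, 9 of 16, while no point for celecoxib is filled.

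The 3 members that act on mevalonate and its phosphates did not pass the test. Mvk and Pmvk, which encode the kinases that phosphorylate mevalonate, had log2 fold changes of 0.30 (SE 0.12, edgeR adjusted p = 0.0917) and 0.24 (SE 0.16, edgeR adjusted p = 0.316). Mvd, encoding the decarboxylase that makes isopentenyl diphosphate, was at 0.18 (SE 0.10, edgeR adjusted p = 0.207). For Mvk 5 of 8 rofecoxib libraries lay above every control, and for Pmvk and Mvd none did.

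The isoprenoid steps that follow did rise. Idi1 encodes the isomerase that interconverts the isoprene building blocks. Control libraries held 6.12 to 8.98 CPM of Idi1 (median 7.57), celecoxib libraries 8.01 to 12.6 (median 9.70) and rofecoxib libraries 9.48 to 16.3 (median 11.6). All 8 rofecoxib values were above the highest control, and the log2 fold change was 0.72 (SE 0.12, edgeR adjusted p = 0.00359). Fdps, encoding farnesyl diphosphate synthase, was tightly grouped in control at 22.3 to 25.1 CPM (median 22.9), against 23.5 to 38.3 in celecoxib (median 25.6) and 27.9 to 40.6 in rofecoxib aortas (median 32.1). Control and rofecoxib again did not overlap, at 0.48 on the log2 scale (SE 0.09, edgeR adjusted p = 0.00462).

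At the entry into sterols the genes diverged. Fdft1, which joins farnesyl units into squalene, had a log2 fold change of -0.11 (edgeR adjusted p = 0.491). Its rofecoxib values ran from 42.8 to 86.1 CPM, around the control range of 51.6 to 72.6. Sqle encodes squalene epoxidase, a rate-limiting enzyme. It measured 21.4 to 32.6 CPM in control (median 28.3), 30.5 to 50.6 in celecoxib (median 37.8) and 35.7 to 55.1 in rofecoxib aortas (median 40.4). Rofecoxib and control did not overlap (log2 fold change 0.58, SE 0.11, edgeR adjusted p = 0.00536), and 6 of 8 celecoxib libraries were also above every control. Lss makes lanosterol. Its values were 12.5 to 18.2 CPM in control (median 15), 14.4 to 26.2 in celecoxib (median 18.3) and 17.5 to 27.1 in rofecoxib (median 21.4). The groups met at 1 rofecoxib library, and the log2 fold change was 0.54 (SE 0.11, edgeR adjusted p = 0.00893).

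The largest rise among the 34 was in the demethylation steps after lanosterol. Hsd17b7 (mm9 chromosome 1, 171879464 to 171899574) encodes the 3-keto reductase of the C4 demethylation complex. It was at 5.82 to 7.76 CPM in control (median 6.78), 7.62 to 11.6 in celecoxib (median 8.81) and 8.73 to 15.6 in rofecoxib aortas (median 12.0). No rofecoxib library reached down to the control range, and the log2 fold change was 0.90 (SE 0.11, edgeR adjusted p = 9.4e-05). Cyp51 (mm9 chromosome 5, 4080943 to 4104948) encodes lanosterol 14α-demethylase. Control libraries held 18.5 to 26.0 CPM (median 20.6), celecoxib 23.2 to 39.6 (median 27.1) and rofecoxib 28.4 to 48.0 (median 35.5). Rofecoxib and control were again apart, by 0.75 on the log2 scale (SE 0.11, edgeR adjusted p = 0.00115).

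Msmo1, listed in the table under its older symbol Sc4mol (mm9 chromosome 8, 67196734 to 67212791), encodes the C4-methylsterol oxidase that acts beside these enzymes. It ran from 23.7 to 34.2 CPM in control (median 30.2), 31.9 to 51.5 in celecoxib (median 38.6) and 38.7 to 54.2 in rofecoxib (median 43.2). Every rofecoxib value and 7 of 8 celecoxib values exceeded the highest control; the rofecoxib log2 fold change was 0.59 (SE 0.10, edgeR adjusted p = 0.00244). Nsdhl, the decarboxylating partner in the same complex, did not pass at 0.23 (SE 0.10, edgeR adjusted p = 0.134). Ebp, a sterol isomerase, was at 0.21 (edgeR adjusted p = 0.101), and Tm7sf2, a sterol reductase, at -0.14 (edgeR adjusted p = 0.376).

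Dhcr7 and Acat2 rose too, with wider spreads. Dhcr7 was scarce, at 1.62 to 3.95 CPM in control (median 2.63), 1.35 to 3.84 in celecoxib (median 2.48) and 2.48 to 5.80 in rofecoxib (median 4.45). Of the 8 rofecoxib libraries 6 were above every control and the others overlapped them; the log2 fold change was 0.75 (SE 0.21, edgeR adjusted p = 0.0316). Acat2, the cytosolic thiolase that begins the route, ran from 25.0 to 53.6 CPM in control (median 29.7), 22.3 to 41.2 in celecoxib (median 30.3) and 25.3 to 69.2 in rofecoxib (median 45.8). Only 3 rofecoxib libraries were above every control (log2 fold change 0.55, SE 0.17, edgeR adjusted p = 0.0474), and the rise did not pass with RLE size factors in place of TMM. The near-identical paralog Acat3 is also in the table, so how reads were divided between the pair is uncertain.

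**Figure D2:**
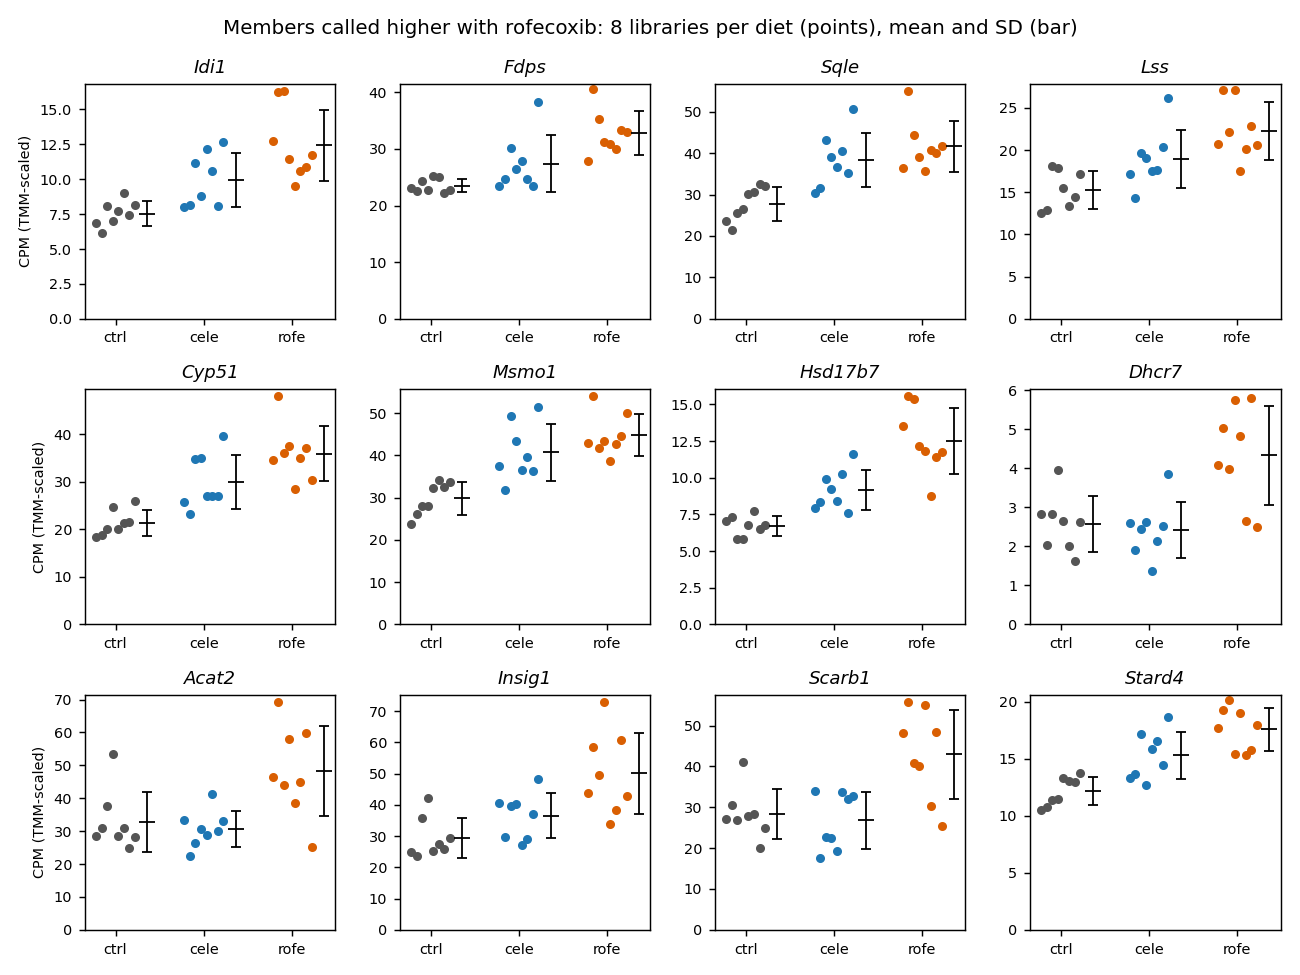
CPM of the 12 members that rose with rofecoxib, 1 point per library (8 per group), with the mean and SD beside each group. Idi1, Fdps, Sqle, Cyp51, Msmo1, Hsd17b7 and Stard4 show no overlap between control and rofecoxib, and Dhcr7, Acat2 and Scarb1 show celecoxib at the control level.

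Not all of these counts can be assigned to 1 gene with certainty. The sources used here do not give the strand setting of the counting, and 17 of the 34 members overlap another gene in the table. Among the 13 called members these were Fdps with Rusc1, Lss with 4930483K19Rik, Hsd17b7 with 3110045C21Rik, Dhcr7 with Nadsyn1 and Insig1 with Gm16719. The overlap covered 44.97% of the span of Lss and between 0.42% and 2.01% of the others. Rusc1 and Nadsyn1 had rofecoxib log2 fold changes of -0.03 (edgeR adjusted p = 0.861) and -0.05 (edgeR adjusted p = 0.775). The other neighbours of called members did not pass the expression filter. The share of reads that came from any neighbour was not tested. Of the members not called, Ch25h shared 41.73% of its span with Gm16704 and Nr1h3 37.94% with Gm13783. Idi1, Sqle, Cyp51, Msmo1 and Stard4 had no such neighbour.

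Because many synthesis members moved together, their promoters were read for the motifs of sterol-regulated genes. The windows are the 250 bases before the annotated start in RefSeq on GRCm38.p6, and 27 of the 34 members matched, with 35 promoters; Fdft1, Fdps, Sqle, Npc1, Scarb1, Stard4 and Abcg1 did not match. Both strands were searched. CCAAT, the box bound by NF-Y, was found in 12 of 16 synthesis promoters (12 of 13 genes), in 4 of 6 uptake promoters (4 of 5 genes), in 3 of 7 regulator promoters and in 1 of 6 efflux promoters, against 33.9% of 32851 promoters. The sterol element core TCACNCCAC was in 0 of 35 member promoters, against 1.05% of all. A looser form, TCACNNCA, contains every match of that core and was searched after the core gave no match. It was in 6 of 16 synthesis promoters (5 of 13 genes) and 2 of 7 regulator promoters, against 11.4% of all. It was in 0 of 6 uptake promoters and 0 of 6 efflux promoters. The E-box CACGTG, to which SREBP proteins also bind, was in 5 of 35 member promoters, against 6.02% of all. Letters and calls did not match gene by gene: Acat2, which rose, has neither CCAAT nor the looser element. Mvk, Mvd, Nsdhl, Ebp and Tm7sf2, which did not pass, and the efflux gene Cyp27a1 carry CCAAT. Pmvk, which did not pass either, carries CCAAT and the looser element in the same promoter. These letters are a description of the windows and no evidence of binding.

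The promoters of 5 members that rose are printed with that of Abca1, an efflux gene that did not pass the test, to show the letters themselves; they are not a representative sample. Each is written 5′ to 3′ on the strand of its gene; capitals mark CCAAT, its reverse complement ATTGG, and TCACNNCA, which overlaps a CCAAT in 1 place in Msmo1. The windows are chr5:4104698-4104947 on the minus strand for Cyp51, chr1:169969206-169969455 on the minus strand for Hsd17b7, chr8:64733579-64733828 on the minus strand for Msmo1, chr13:8885356-8885605 on the plus strand for Idi1, chr5:28071162-28071411 on the plus strand for Insig1 and chr4:53159896-53160145 on the minus strand for Abca1.
Cyp51: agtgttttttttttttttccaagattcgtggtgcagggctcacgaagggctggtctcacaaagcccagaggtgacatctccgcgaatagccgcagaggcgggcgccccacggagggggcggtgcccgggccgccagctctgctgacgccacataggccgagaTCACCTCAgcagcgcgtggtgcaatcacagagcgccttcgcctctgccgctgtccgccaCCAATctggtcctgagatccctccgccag
Hsd17b7: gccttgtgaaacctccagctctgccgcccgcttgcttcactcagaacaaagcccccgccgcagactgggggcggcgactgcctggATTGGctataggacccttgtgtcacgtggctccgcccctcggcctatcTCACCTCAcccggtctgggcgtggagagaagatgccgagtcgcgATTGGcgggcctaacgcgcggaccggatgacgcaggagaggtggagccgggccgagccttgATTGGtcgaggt
Msmo1: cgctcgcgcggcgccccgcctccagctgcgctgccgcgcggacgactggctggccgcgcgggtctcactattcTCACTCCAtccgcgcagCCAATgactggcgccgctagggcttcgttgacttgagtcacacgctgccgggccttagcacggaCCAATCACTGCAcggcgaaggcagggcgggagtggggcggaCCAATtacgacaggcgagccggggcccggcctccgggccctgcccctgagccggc
Idi1: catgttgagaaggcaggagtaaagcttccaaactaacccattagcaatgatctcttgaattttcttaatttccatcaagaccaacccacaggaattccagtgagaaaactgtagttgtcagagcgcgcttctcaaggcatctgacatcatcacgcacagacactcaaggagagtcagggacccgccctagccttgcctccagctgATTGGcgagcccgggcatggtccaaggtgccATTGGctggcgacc
Insig1: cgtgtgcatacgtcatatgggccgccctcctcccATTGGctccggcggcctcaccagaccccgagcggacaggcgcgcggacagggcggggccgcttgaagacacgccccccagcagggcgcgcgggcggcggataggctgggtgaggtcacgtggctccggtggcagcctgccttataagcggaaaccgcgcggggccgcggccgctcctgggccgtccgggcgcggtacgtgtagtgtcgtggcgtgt
Abca1: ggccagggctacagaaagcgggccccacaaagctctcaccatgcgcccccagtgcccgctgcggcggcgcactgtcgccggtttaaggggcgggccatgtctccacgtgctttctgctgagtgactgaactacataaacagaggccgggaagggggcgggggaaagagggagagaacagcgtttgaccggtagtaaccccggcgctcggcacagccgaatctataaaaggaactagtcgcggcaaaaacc
Cyp51 and Hsd17b7, 2 of the genes with no overlap between control and rofecoxib, carry the same 8 letters, TCACCTCA, at 80 and 109 bases before the start, on the strand of the gene. Msmo1 holds TCACTCCA and TCACTGCA. Idi1 and Insig1 have CCAAT boxes and no looser sterol element in this window, and Abca1 has neither.

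Among the regulators, Insig1 alone rose. Insig1 is itself a sterol-regulated gene, whose product restrains SREBP-2. It ran from 23.5 to 42.2 CPM in control (median 26.8), 27.1 to 48.3 in celecoxib (median 38.4) and 33.98 to 72.8 in rofecoxib aortas (median 46.7). In 6 of 8 rofecoxib libraries it was above every control, a log2 rise of 0.77 (SE 0.15, edgeR adjusted p = 0.00738). Insig2, the paralog that is less dependent on SREBP, spanned 62.1 to 80.4 CPM in control and 61.1 to 85.6 in rofecoxib, a log2 fold change of -0.01. Srebf2 itself was at 178 to 251 CPM in control (median 209), 154 to 258 in celecoxib (median 212) and 162 to 264 in rofecoxib (median 200). The 3 groups overlapped almost fully, and the 95% interval of the rofecoxib log2 fold change ran from -0.26 to 0.17. Scap, the escort of SREBP-2, was at 0.00 on the same scale.

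Uptake and trafficking genes did not move as 1 group. Stard4, which carries cholesterol between membranes, was at 10.5 to 13.7 CPM in control (median 12.2), 12.7 to 18.6 in celecoxib (median 15.2) and 15.3 to 20.1 in rofecoxib (median 17.8). Control and rofecoxib did not overlap, and the log2 fold change was 0.53 (SE 0.08, edgeR adjusted p = 0.0023). Scarb1, the receptor for high-density lipoprotein, spanned 19.96 to 41.1 CPM in control (median 27.6), 17.6 to 33.99 in celecoxib (median 27.4) and 25.5 to 55.7 in rofecoxib (median 44.5). In rofecoxib 4 libraries exceeded every control (log2 fold change 0.60, SE 0.17, edgeR adjusted p = 0.0353). Soat1 was lower, at 23.4 to 27.6 CPM in control (median 24.6), 20.02 to 27.2 in celecoxib (median 23.8) and 19.6 to 23.8 in rofecoxib (median 22.4). For Soat1 7 of 8 rofecoxib libraries lay below every control, and the size was small, -0.19 on the log2 scale (SE 0.06, edgeR adjusted p = 0.0432). The fall did not pass when libraries were scaled by their totals alone.

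The members Vldlr and Lrp1, both surface receptors for lipoproteins, did not pass the test. Vldlr, the very-low-density lipoprotein receptor, was at 76.2 to 103 CPM in control (median 83.0), 68.6 to 105 in celecoxib (median 81.3) and 46.7 to 106 in rofecoxib (median 78.7), with wide overlap and a log2 fold change of -0.12 (edgeR adjusted p = 0.535). Lrp1 was at -0.15 (edgeR adjusted p = 0.256). Mylip, a target of the liver X receptors, spanned 74.9 to 133 CPM in control (median 95.9), 66.1 to 124 in celecoxib (median 73.5) and 57.3 to 117 in rofecoxib (median 90.7). Its rofecoxib log2 fold change was -0.19 (SE 0.16, edgeR adjusted p = 0.43). Npc1 and Npc2, which release cholesterol from lysosomes, were at 0.06 and 0.20 on that scale, neither past the test.

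No efflux or oxysterol gene passed the edgeR test with rofecoxib. At an unadjusted p under 0.05, 1 was higher and 1 lower (16.4% and 11.8% of all genes tested). DESeq2 called none of the 6 and limma voom called 1, Nr1h3, beside 12% and 16.9% of all genes. Abca1, the transporter that loads apolipoprotein A-I, was at 78.9 to 115 CPM in control (median 91.7), 55.1 to 107 in celecoxib (median 80.8) and 77 to 137 in rofecoxib (median 93.7). The rofecoxib and control ranges overlapped almost wholly (log2 fold change 0.11, edgeR adjusted p = 0.616). Abcg1, its partner in efflux to high-density lipoprotein, was at 2.48 to 8.51 CPM in control (median 4.50), 2.53 to 5.46 in celecoxib (median 4.16) and 2.90 to 9.76 in rofecoxib (median 7.53). Its log2 fold change of 0.47 had an SE of 0.24 (edgeR adjusted p = 0.186). Nr1h3, the liver X receptor of macrophages, liver and fat, was at 16.9 to 32.9 CPM in control (median 19.8), 13.2 to 23.7 in celecoxib (median 20.4) and 17.5 to 34.8 in rofecoxib (median 27.1). The difference of 0.33 in log2 did not pass (SE 0.15, edgeR adjusted p = 0.153).

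The remaining 3 efflux members split. Nr1h2, the widely expressed liver X receptor, was at -0.16 (edgeR adjusted p = 0.1) with rofecoxib. Cyp27a1, which makes 27-hydroxycholesterol, was at 0.22 (edgeR adjusted p = 0.247). Ch25h, which makes 25-hydroxycholesterol and responds to interferon, was at 0.24 (SE 0.29, edgeR adjusted p = 0.597). For Ch25h the fold change and the medians differed in sign: the median was 5.40 CPM in control and 4.84 in rofecoxib, while the highest rofecoxib library reached 13.7 CPM.

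**Figure D3:**
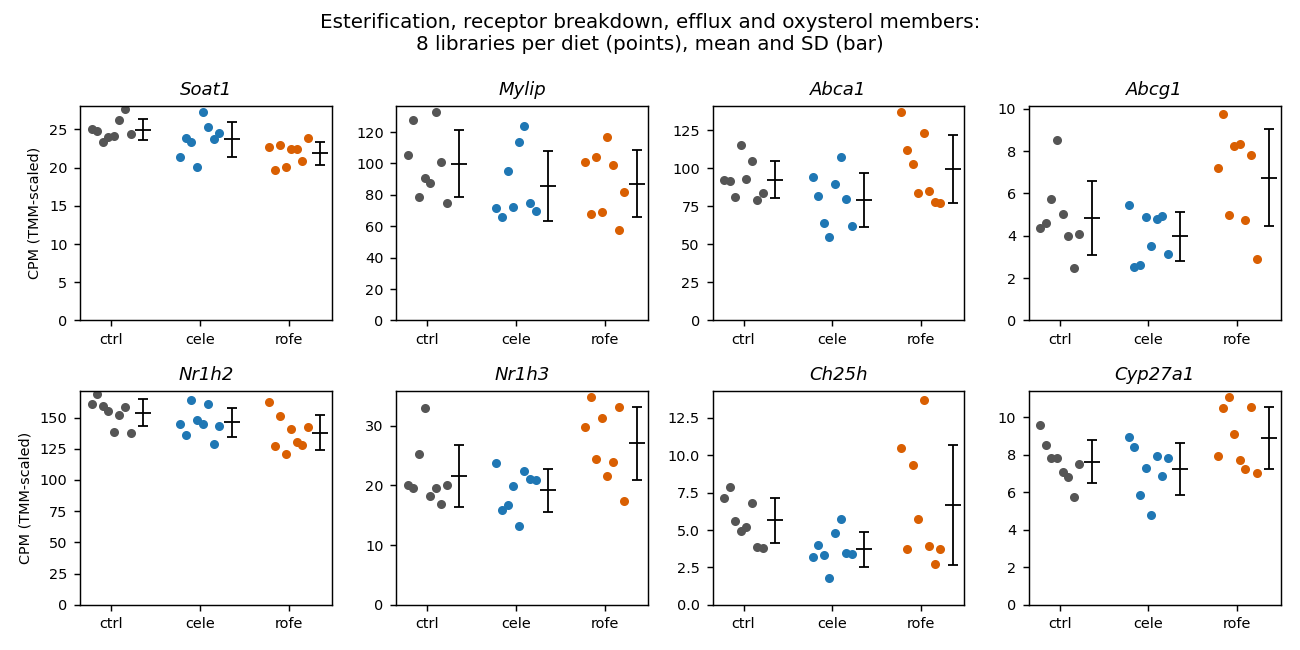
CPM of the 6 efflux and oxysterol members, Soat1 and Mylip, 1 point per library, with the mean and SD beside each group. The control and rofecoxib points of Abca1 overlap between 78.9 and 115 CPM, and celecoxib points of Ch25h reach down to 1.79 CPM.

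Summed per library, the separation lay in synthesis. The mean level of the 16 synthesis members was 3.81 ± 0.10 log2 CPM (SD, n = 8) in control, 3.97 ± 0.16 in celecoxib and 4.23 ± 0.18 in rofecoxib aortas. All 8 rofecoxib libraries, at 4.02 to 4.55, were above every control, at 3.69 to 4.01. The efflux members were at 4.31 ± 0.21 log2 CPM in control, 4.07 ± 0.19 in celecoxib and 4.47 ± 0.27 in rofecoxib. The synthesis level minus the efflux level was lowest in control, at -0.49 (-0.73 to -0.22), with -0.24 (-0.68 to 0.04) in rofecoxib and -0.09 (-0.44 to 0.31) in celecoxib aortas. The 3 groups overlapped in this difference. The synthesis level minus the uptake level was -2.25 (-2.41 to -2.14) in control, -2.06 (-2.18 to -1.78) in celecoxib and -1.91 (-2.05 to -1.68) in rofecoxib aortas; here rofecoxib and control did not overlap, and celecoxib overlapped both.

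Marker levels of other cells of the vessel and its surroundings also differed between the groups. The mean level of 10 adipocyte markers was 6.53 log2 CPM in control (5.30 to 7.43), 6.38 in celecoxib (5.47 to 6.94) and 7.33 in rofecoxib (5.94 to 8.08), and 3 of 10 rose with rofecoxib. The 8 Schwann cell markers stood at 3.19 (2.72 to 4.44), 2.59 (2.15 to 2.97) and 3.69 (2.5 to 5.82), and none passed against control with either drug. The 10 macrophage markers stood at 3.86 (3.60 to 4.25), 3.66 (3.14 to 4.10) and 4.18 (3.40 to 4.69), of which 1 rose with rofecoxib. The 8 endothelial markers stood at 5.49 (5.21 to 5.73), 5.56 (5.14 to 6.21) and 5.89 (5.04 to 6.30); 2 rose with rofecoxib, and the level in 6 of 8 rofecoxib libraries was above every control. The 7 brown adipocyte markers stood at 5.03 (3.84 to 6.28), 4.55 (2.73 to 5.28) and 5.73 (4.54 to 6.91), with no marker called against control by edgeR and 4 higher with rofecoxib at an unadjusted p under 0.05. No marker in these 5 lists was at 0 in any library. Over all genes tested, 3.88% rose with rofecoxib and 3.06% fell. At an unadjusted p under 0.05, 16.4% were higher and 11.8% lower, and 1 adipocyte marker was lower. Of the 8 smooth muscle markers 1 fell with rofecoxib and all 8 had estimates below 0, as had 6558 of 14528 genes tested. Of the 6 fibroblast markers 1 fell. The rofecoxib library with the lowest adipocyte level, 5.94, had a synthesis level of 4.02, beside 4.01 in the highest control, replicate 4. That is 1 library, and whether the synthesis level followed the adipocyte level was not tested.

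**Figure D4:**
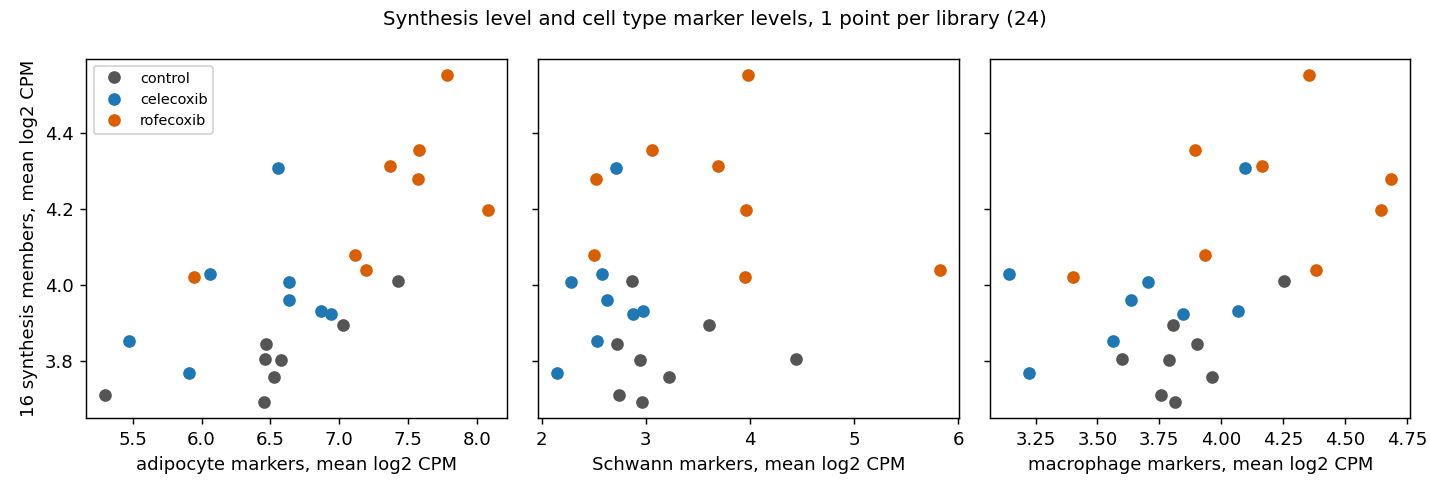
Mean level of the 16 synthesis members against the mean level of adipocyte, Schwann cell and macrophage markers, all in log2 CPM, 1 point per library (24). The rofecoxib points lie above the control points on the vertical axis in each panel, while both groups overlap on the horizontal axes.

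Adding these levels to the model parted the risers into sets. With the adipocyte level as a covariate, 7 members were called: Idi1, Fdps, Sqle, Cyp51, Msmo1, Hsd17b7 and Stard4, which are the 7 with no overlap between control and rofecoxib. Hsd17b7 stood at 0.87 and Cyp51 at 0.65 on the log2 scale in that fit, close to their values without it. Over all genes the calls fell too, from 6.94% to 0.268%. Acat2 went from 0.55 to 0.16, Dhcr7 from 0.75 to 0.31 and Scarb1 from 0.60 to 0.19, and none of these was called. Insig1 at 0.54, Lss at 0.42 and Soat1 at -0.10 were no longer called either. With adipocyte, Schwann and macrophage levels together, Cyp51, Msmo1, Hsd17b7 and Stard4 were called, at 0.70, 0.62, 0.84 and 0.53, beside 0.165% of all genes. A covariate measured in the same libraries can also take up a drug effect, and which cells carried the RNA of each member was not tested.

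The size of the rise also differed by replicate number. The synthesis level was 0.52 higher with rofecoxib in libraries numbered 1 to 4 and 0.31 higher in those numbered 5 to 8; the labels do not say that these numbers mark a batch. In libraries 1 to 4 alone 6 members and 0.286% of all genes were called, and in libraries 5 to 8 alone 2 members, Hsd17b7 higher and Fdft1 lower, and 2.78% of all genes. Hsd17b7 was at 1.12 and 0.64 on the log2 scale, Idi1 at 1.02 and 0.40, and Sqle at 0.85 and 0.33. For Acat2 the 2 values were 0.53 and 0.58, and for Dhcr7 0.69 and 0.82, neither called with 4 libraries per group. Whether the 2 sets of libraries differed was not tested.

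**Figure D5:**
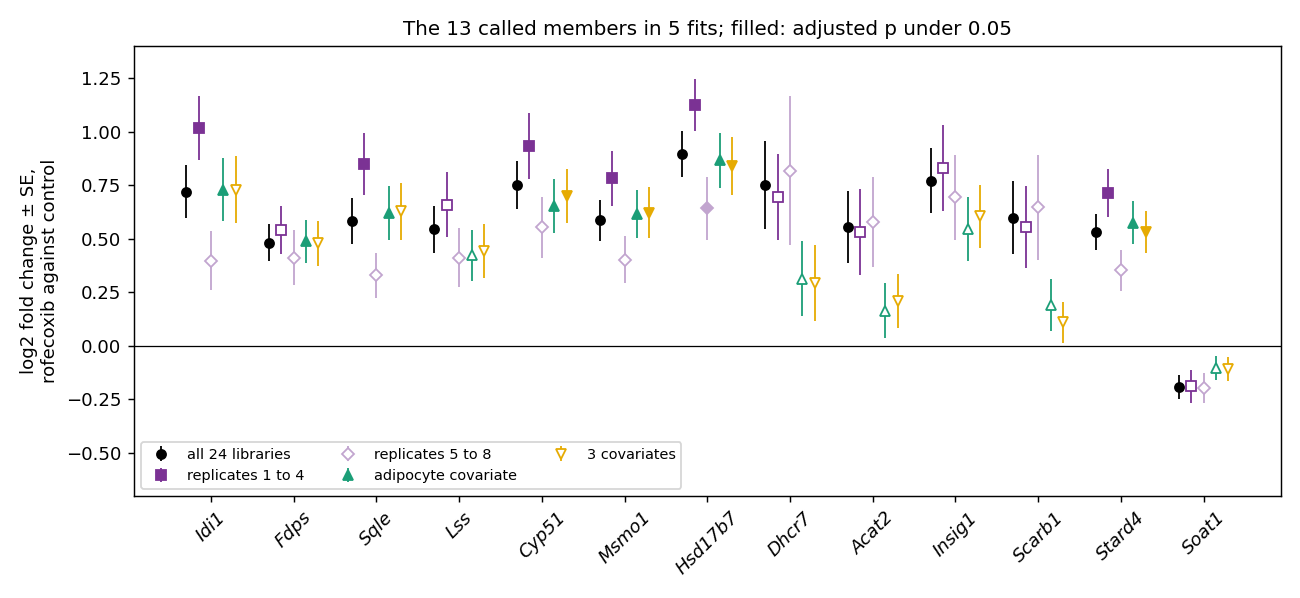
Log2 fold change with SE of the 13 called members, rofecoxib against control, in 5 fits: all libraries, replicates 1 to 4, replicates 5 to 8, the adipocyte level as a covariate, and 3 marker levels as covariates; filled points have an adjusted p under 0.05. Hsd17b7 is filled in all 5 fits, and Dhcr7, Acat2 and Scarb1 drop towards 0 only in the fits with covariates.

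Leaving out 1 library at a time also split the calls, though not into the same sets as the covariates did. Idi1, Fdps, Sqle, Lss, Cyp51, Msmo1, Hsd17b7, Insig1 and Stard4 passed in all 24 such fits. Dhcr7 passed in 16 of 24, Soat1 in 14, Scarb1 in 13 and Acat2 in 8. Over all genes the share called in these fits ran from 2.45% without control replicate 2 to 13.3% without rofecoxib replicate 8. The fits that lost Dhcr7 called 2.45% to 4.08% of all genes, against 6.94% with all libraries. Dhcr7 was lost without rofecoxib replicate 2, 4 or 7 or control replicate 1, 2, 5, 6 or 7, at log2 fold changes of 0.67 to 0.87 over all 24 fits (highest edgeR adjusted p = 0.0727). Scarb1 was lost without rofecoxib replicate 1, 2, 4, 5 or 7 or control replicate 1, 2, 5, 6, 7 or 8 (0.53 to 0.70, highest edgeR adjusted p = 0.077). Soat1 was lost without rofecoxib replicate 2, 4, 6 or 7 or the same 6 controls (-0.22 to -0.17, highest edgeR adjusted p = 0.0876). Acat2 was lost without rofecoxib replicate 1, 2, 4, 6 or 7, those 6 controls, or celecoxib replicate 1, 3, 4, 5 or 7 (0.46 to 0.69, highest edgeR adjusted p = 0.103).

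With celecoxib, no member passed the edgeR test against control. Over all genes 0.0344% were called, 0.00688% higher and 0.0275% lower. No member had all 8 celecoxib libraries above every control, a separation found for 0.0895% of all genes tested, or all below, found for 0.145%. DESeq2 called 5 members and limma voom 3, beside 0.767% and 0.833% of all genes. At an unadjusted p under 0.05 in edgeR, 10 members were higher, against 7.72% of all genes tested, and 1 was lower, against 5.83%. Of the 10, 8 were synthesis enzymes, the others being Insig1 and Stard4, and the 1 lower was Ch25h. The median log2 fold change was 0.21 over the synthesis members and -0.20 over the efflux members, against 0.00 over all genes tested. The smallest adjusted p was that of Msmo1, at 0.45 on the log2 scale (SE 0.10, edgeR adjusted p = 0.0874). Sqle was at 0.47 (SE 0.11) and Cyp51 at 0.49 (SE 0.11), both with an edgeR adjusted p of 0.105, and Hsd17b7 was at 0.44 (SE 0.11, edgeR adjusted p = 0.125). Without celecoxib replicate 2, Sqle, Cyp51 and Msmo1 passed.

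The 6 efflux and oxysterol members all had celecoxib estimates below 0, none past the test. Over all genes tested 7199 of 14528 estimates were below 0. The efflux level differed from control by -0.45 in libraries numbered 1 to 4 and by -0.03 in those numbered 5 to 8. Whether these sets of libraries differed was not tested. Abca1 was at -0.22 (SE 0.14, edgeR adjusted p = 0.465), with 3 of 8 celecoxib libraries below every control. Ch25h was at -0.60 (SE 0.29, edgeR adjusted p = 0.366); its celecoxib libraries held 1.79 to 5.73 CPM (median 3.45) against 3.81 to 7.87 in control (median 5.40). For Ch25h 5 celecoxib libraries were below every control. Abcg1 stood at -0.28, Nr1h3 at -0.17, Nr1h2 and Cyp27a1 each at -0.07. Mylip was at -0.22 (edgeR adjusted p = 0.561) and Srebf2 at 0.00.

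The 2 drugs were then set against each other, at doses that differ, 100 and 50 mg/kg/day, so that drug and dose cannot be told apart. Both comparisons with control use the same control libraries; here the controls enter only through the expression filter, the scaling and the shared estimate of spread. Celecoxib aortas were lower than rofecoxib aortas for 4 members and higher for none, where 4.89% of all genes were called, 4.32% lower and 0.564% higher. With only the 2 drug groups in the fit, or with no filter on low counts, 0 members and 0 genes were called. Hsd17b7 was at -0.45 (SE 0.11, edgeR adjusted p = 0.0369), Dhcr7 at -0.83 (SE 0.21, edgeR adjusted p = 0.0371), Scarb1 at -0.68 (SE 0.17, edgeR adjusted p = 0.0372) and Acat2 at -0.65 (SE 0.17, edgeR adjusted p = 0.0372). At an unadjusted p under 0.05, 18 members were lower and 0 higher, against 15.1% and 7.94% of all genes tested. The celecoxib and rofecoxib ranges of all 4 called members overlapped. Dhcr7, Scarb1 and Acat2 had celecoxib values near control, at -0.08, -0.08 and -0.10, and Hsd17b7 was between the other groups. For Sqle the interval of the difference was -0.34 to 0.10, and Msmo1 was at -0.14 (edgeR adjusted p = 0.417). These 4 calls were lost together without celecoxib replicate 2, 3, 4 or 5 or without rofecoxib replicate 2, 3, 4 or 7, fits in which 0 to 3 genes of all tested were called. Without rofecoxib replicate 8, 11 members and 13.7% of all genes were called, and without control replicate 4, 7 members and 7.01%; Acat2 and Scarb1 were also lost without rofecoxib replicate 1, with 1.65% of all genes called. Over the fits without 1 library the log2 differences stayed between -0.51 and -0.40 for Hsd17b7, -0.96 and -0.74 for Dhcr7, -0.74 and -0.56 for Acat2 and -0.75 and -0.60 for Scarb1. With the adipocyte level as a covariate 0 members and 0 genes were called.

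Of the 6 efflux members 5 had estimates below 0 for celecoxib against rofecoxib and Nr1h2 was at 0.08. None passed the edgeR test, with 5 lower at an unadjusted p under 0.05 (15.1% of all genes tested). DESeq2 called Abcg1, Nr1h3 and Ch25h lower and limma voom Nr1h3, beside 9.34% and 5.93% of all genes called in either direction. Abcg1 was at -0.76 (edgeR adjusted p = 0.0591), Nr1h3 at -0.49 (edgeR adjusted p = 0.0532), Ch25h at -0.84 (edgeR adjusted p = 0.0791) and Abca1 at -0.33 (edgeR adjusted p = 0.135). Cyp27a1 was at -0.30, and the median of the 6 was -0.41. Over all genes tested 7020 of 14528 estimates were below 0. The efflux level of celecoxib aortas differed by -0.61 in libraries numbered 1 to 4 and by -0.20 in those numbered 5 to 8. In the same comparison 5 of 10 adipocyte, 4 of 8 Schwann and 4 of 10 macrophage markers were lower in celecoxib aortas. Over all genes tested 4.32% were lower. None of the 8 smooth muscle markers was called. At an unadjusted p under 0.05, 5 of them were higher in celecoxib aortas, against 7.94% of all genes tested. The part of these cells in the efflux values was not tested.

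A further 38 genes of the same pathways were examined, a list that is not complete; 37 were in the table and 36 were tested. With rofecoxib 5 rose and 1 fell, against 3.88% and 3.06% of all genes tested, with a median log2 fold change of 0.05. None passed the edgeR test with celecoxib. At an unadjusted p under 0.05, 1 was higher and 2 were lower with celecoxib, against 7.72% and 5.83% of all genes tested. Sc5d, encoding the lathosterol oxidase that makes the substrate of the Dhcr7 enzyme, was at 11.2 to 16.5 CPM in control (median 14.5), 15.2 to 25.1 in celecoxib (median 17.3) and 19.9 to 27.1 in rofecoxib (median 21.6). It did not overlap between control and rofecoxib, like 7 of the members (log2 fold change 0.67, SE 0.10, edgeR adjusted p = 0.00122). Gramd1c, which moves cholesterol from the plasma membrane to the endoplasmic reticulum, fell: it was at 7.27 to 11.3 CPM in control (median 8.52), 6.09 to 7.59 in celecoxib (median 6.25) and 4.02 to 6.75 in rofecoxib (median 5.75). Its rofecoxib values were all below every control, a separation downward found for 0.509% of all genes tested, at -0.64 on the log2 scale (SE 0.10, edgeR adjusted p = 0.00216), and 7 of 8 celecoxib values were as well (-0.44, edgeR adjusted p = 0.105).

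The other genes of that list that rose with rofecoxib serve fatty acid and lipoprotein handling. Srebf1, which encodes the SREBP that favours fatty acid synthesis, was at 0.34 (SE 0.10, edgeR adjusted p = 0.0441). Cd36 and Msr1, scavenger receptors of macrophages, the first also abundant in fat cells, were at 0.91 (SE 0.26, edgeR adjusted p = 0.0386) and 0.64 (SE 0.17, edgeR adjusted p = 0.0284). Abca7, a lipid transporter, was at 0.29 (SE 0.08, edgeR adjusted p = 0.0312). Against rofecoxib, celecoxib aortas were lower in Srebf1, Cd36, Msr1, Lpl and Gramd1b, by log2 values of -0.38, -1.15, -0.71, -1.33 and -0.70. The edgeR adjusted p of these genes ran from 0.0369 to 0.0496. Celecoxib aortas were higher in Mbtps1, the site-1 protease that releases SREBP, by 0.15 (edgeR adjusted p = 0.0411). Over all genes tested, 4.32% were lower and 0.564% higher. With only the 2 drug groups, no filter on low counts or the adipocyte covariate, 0 genes were called in this comparison.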

How the data were processed

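The deposited data are raw counts per gene in 24 libraries of thoracic aorta, 8 for each diet, in a single table. Per the submitters' processing notes, CASAVA 1.8.1, STAR 2.5.1b and the mm9 build were used, with no role stated; counter, annotation and strand setting: not given in the sources used here. Totals agreed within 0.145%; whether they were made alike, and the depth before that, is not given. Libraries were built over several days, per the labels' protocols, with no day per library, so that batch could not be examined.

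Groups and replicate numbers came from the sample titles; the labels call the libraries biological replicates. Tests used edgeR 4.0.16 in R 4.3.3: the default filter left 14528 genes, scaling was TMM, 1 mean per group was fitted over 24 libraries, and the quasi-likelihood test was two-sided with Benjamini-Hochberg adjustment over all genes tested. Intervals are 95% intervals of that fit. A list's level is the mean log2 CPM of its tested genes, with a prior count of 2. RPKM used exon lengths of GENCODE M21, whose build differs from mm9, and no coordinates were taken from it. Promoters are from RefSeq on GRCm38.p6; positions on mm9 are as the table gives them, with the base of the start not stated.

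The members, roles and other lists were chosen with earlier results of these data known. Values are given in full for called members and for 13 members fixed by function (Cyp51, Msmo1, Sqle, Idi1, Srebf2, Insig1, Vldlr, Scarb1, Soat1, Mylip, Abca1, Abcg1 and Nr1h3), and up to 8 called genes of the other pathway list are named. Several well-known genes of the pathway were not analysed here. Alternatives were other scalings and filters, DESeq2 1.42.0, limma 3.58.1 voom, other sample sets, marker covariates, a replicate block and leaving out each library. The scripts were tested on simulated data.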

Additional observations from a re-analysis of the deposited data

Results flagged for a closer look

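In 102 sets of 8 values (34 members in 3 groups), 8 had a highest or lowest library set apart from the rest by Dixon's test; chance flags about 1 in 20 such groups. In rofecoxib aortas replicate 2 was highest for Fdft1 (86.1 CPM, next 61.1), Sqle (55.1, next 44.4) and Cyp51 (48.0, next 37.6). That library was the highest of its group for 10 of the 16 synthesis members. Rofecoxib replicate 7 was lowest for Mvd, at 5.27 CPM with the next at 6.39. In celecoxib aortas replicate 8 was highest for Pmvk (16.8 CPM, next 13.7) and Fdps (38.3, next 30.1), and it was the highest of its group for 13 of the 16. Among controls, replicate 4 was highest for Acat2 (53.6 CPM, next 37.6) and replicate 8 for Vldlr (103 CPM, next 85.6). Without rofecoxib replicate 2 the rises of Sqle and Cyp51 still passed the edgeR test.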

How the results depend on the processing

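Against control, 13 members were called with rofecoxib; counts were 12 with RLE size factors, 12 with library size alone, 13 above a mean of 1 CPM, 13 with DESeq2, 16 with limma voom, 12 with only the 2 groups, 13 with replicates 1 to 4 or 5 to 8 as a term, and 9 to 15 over fits without 1 library. Over all genes the share called was 6.94% in the main fit, 6.88% with RLE, 9.75% with library size alone and 7.77% above a mean of 1 CPM. It was 12% with DESeq2, 16.9% with limma voom, 6.3% with only the 2 groups and 11.9% with the replicate term. Without 1 library it ran from 2.45% to 13.3%. No scaling moved the median of all genes by over 0.1 (log2). The count was 9 with no filter on low counts, where more genes were tested, 6 from replicates 1 to 4 only and 2 from replicates 5 to 8 only, which hold fewer samples, 7 with the adipocyte covariate and 4 with 3 covariates; the cause of the last 2 was not tested. For celecoxib against control the count of 0 became 5 with DESeq2, 3 with limma voom and 5 with replicates 1 to 4 or 5 to 8 as a term. The shares of all genes called were 0.767%, 0.833% and 1.2%, against 0.0344% in the main fit. Without 1 library the member count was 0 to 3.

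For celecoxib against rofecoxib the 4 calls became 9 with DESeq2, 6 with limma voom and 11 in replicates 1 to 4 alone, beside 9.34%, 5.93% and 14.1% of all genes. No member was called (0) with no filter, only the 2 groups, replicates 5 to 8 alone, the adipocyte covariate or 3 covariates, where 0 genes were called at all, and 0 to 11 were called without 1 library. The median over uptake members for celecoxib against control was -0.14 in replicates 1 to 4 and 0.0030 in replicates 5 to 8. For celecoxib against rofecoxib it was -0.13 in replicates 1 to 4, and the synthesis median was -0.059 in replicates 5 to 8. Scarb1 for that comparison turned to 0.012 with 3 covariates; the cause was not tested.

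The labels do not say that replicate numbers pair the libraries, and they were not taken to: correlations of deviations between same-numbered libraries ran from -0.303 to 0.56 (median 0.110, against -0.015 for other numbers), 12 of 24 such pairs were above 0.1, and 7 of 24 libraries correlated best with their own number. With the replicate block 11 members were called with rofecoxib, 0 with celecoxib and 0 between the drugs, where the block left 0 genes called. Dhcr7, Abcg1 and Ch25h had the lowest control medians, at 2.63, 4.50 and 5.40 CPM, and how far depth limited them was not tested. Mvk, Mvd, Idi1, Hsd17b7, Tm7sf2 and Cyp27a1 also had control medians under 10 CPM.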
